A study of Mus musculus with 4 samples.

Results

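Pax5, Bcl6, Bach2, Prdm1, Xbp1, Mitf and Sdc1 govern or mark the passage of a B cell into an antibody-secreting plasma cell, and their expression was examined in follicular B cells with and without Ets1. They were chosen by name, as 7 of the 23305 genes in the deposited tables, and all 7 were found. The 4 libraries were made from quiescent follicular B cells of the spleen of female mice, 2 from WT animals of strain C57BL/6 and 2 from Ets1-/- animals of mixed C57BL/6 x 129Sv background, with no treatment in either group. The cells were sorted as B220+ with high CD23, low CD21 and none of CD80, IgA, IgE or the IgG subclasses, and CD138 (the product of Sdc1) was not part of the gate. Ets1 is missing from every cell of the Ets1-/- mice and not from B cells alone, and strain differs together with genotype, so the effects of either cannot be told apart.

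In a resting B cell, Pax5 holds the B cell gene program in place, and Bach2 keeps the plasma cell regulator Blimp-1, encoded by Prdm1, repressed. Bcl6 directs the program of germinal center B cells. When a B cell differentiates, Blimp-1 shuts down Pax5 and Bcl6, and Xbp1 builds the secretory apparatus. Mitf is a basic helix-loop-helix factor that restrains Irf4 in resting B cells. Sdc1 encodes syndecan-1, or CD138, the surface proteoglycan by which plasma cells are recognized.

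Ets1 belongs to the ETS family, whose members bind DNA around the core GGAA, so the promoter windows of 4 of the genes are shown with every GGAA, on either strand, in capitals. Pax5 is included as the gene whose libraries overlapped between the genotypes. Bach2 and Prdm1 are included as regulators that were higher in both Ets1-/- libraries and Bcl6 as a regulator that was lower, though none was called. Each window runs 5' to 3' on the strand of the gene, from 250 bases before to 50 bases after a start site given by RefSeq for GRCm38.p6, and each was placed in mm9 by an exact, unique match. They lie at chr4:44723517-44723816 (minus strand), chr16:23988889-23989188 (minus), chr4:32504160-32504459 (plus) and chr10:44178505-44178804 (minus).
Pax5: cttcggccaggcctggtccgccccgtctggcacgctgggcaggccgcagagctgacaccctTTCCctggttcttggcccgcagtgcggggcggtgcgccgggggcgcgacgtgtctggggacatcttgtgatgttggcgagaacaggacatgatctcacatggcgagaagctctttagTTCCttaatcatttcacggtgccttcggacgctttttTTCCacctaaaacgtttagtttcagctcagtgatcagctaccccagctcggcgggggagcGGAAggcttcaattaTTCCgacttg
Bcl6: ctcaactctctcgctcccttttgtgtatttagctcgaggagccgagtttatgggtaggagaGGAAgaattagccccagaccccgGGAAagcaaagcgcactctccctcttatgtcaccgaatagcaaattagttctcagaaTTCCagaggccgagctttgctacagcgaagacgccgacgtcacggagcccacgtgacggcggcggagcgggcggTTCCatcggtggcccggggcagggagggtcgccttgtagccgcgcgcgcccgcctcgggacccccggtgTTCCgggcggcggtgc
Bach2: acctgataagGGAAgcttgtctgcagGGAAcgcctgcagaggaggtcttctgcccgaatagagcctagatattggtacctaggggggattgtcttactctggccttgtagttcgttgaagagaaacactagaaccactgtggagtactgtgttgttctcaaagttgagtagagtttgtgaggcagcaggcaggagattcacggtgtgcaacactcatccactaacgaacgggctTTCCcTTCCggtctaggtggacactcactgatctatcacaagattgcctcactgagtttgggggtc
Prdm1: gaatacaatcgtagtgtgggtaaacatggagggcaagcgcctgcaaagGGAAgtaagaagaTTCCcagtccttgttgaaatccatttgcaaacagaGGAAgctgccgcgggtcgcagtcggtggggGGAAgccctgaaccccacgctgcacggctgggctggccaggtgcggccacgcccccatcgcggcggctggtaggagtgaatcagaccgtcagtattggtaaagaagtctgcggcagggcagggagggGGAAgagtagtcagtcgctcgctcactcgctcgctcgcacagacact

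The GENCODE M1 models of mm9 extend upstream of 3 of these start sites, those of Pax5, Bach2 and Prdm1. All 300 bases of the Pax5 window are exonic in another Pax5 transcript, while in the windows of Bach2, Prdm1 and Bcl6 the exonic part is 50 bases. RefSeq lists 10 windows for the 7 genes, 2 of them for Bcl6 and 3 for Mitf. GGAA was present in all 10 windows, as in 96% of the 32851 mouse promoter windows of this length. The longer CGGAAG, which contains the core and comes closer to the ETS consensus, was present in 3 of the 10 windows, those of Pax5, Bach2 and the most upstream start of Mitf, against 16.9% of all windows. It begins 24 bases after the start site in Pax5 and, on the reverse strand, 12 bases before it in Bach2. The Prdm1 window held 5 GGAA cores and no CGGAAG. These are matches of letters, and binding was not measured in these libraries.

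Expression is given as FPKM, a count of sequenced fragments scaled by transcript length and by the size of the library, so levels of different genes can be set side by side. The genotypes were compared with limma on log2(FPKM + 1) and Benjamini-Hochberg adjustment over 10949 genes, those whose mean reached 1 FPKM in WT, in Ets1-/- or in both. To be called, a gene had to differ by 1 or more on the log2 scale with an adjusted p no higher than 0.05. Adding 1 understates the change of low genes, and the 95% intervals quoted are not adjusted for the number of genes. The labels give no batch, and between 10466 and 10713 genes reached 1 FPKM per library. Relative to WT replicate 1, the sequencing depth was 1.75 in WT replicate 2, 1.67 in Ets1-/- replicate 1 and 0.876 in Ets1-/- replicate 2, so each genotype held 1 deeper and 1 shallower library. The whole-gene FPKM of Ets1 itself was 231 and 275 in WT and 229 and 229.8 in Ets1-/- B cells, a log2 difference of -0.14 that does not check the genotype labels, because a whole-gene value does not show which exons are present. Among markers of other cells, all 10 neutrophil genes were higher in both Ets1-/- libraries, with a summed FPKM of 94.1 to 115 in WT, 2571 in Ets1-/- replicate 1 and 705 in Ets1-/- replicate 2.

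In the WT libraries the 7 genes spanned more than 3 orders of magnitude and kept the same order in both replicates, from Pax5 through Xbp1, Bcl6, Bach2, Sdc1 and Prdm1 to Mitf, with no overlap between neighbors. Pax5 stood at the 98.3 to 98.4 percentile of all genes, Prdm1 at 52.3 to 52.8 and Mitf at 45.1 to 46.9. In the Ets1-/- libraries the order was the same except that Bach2 stood above both Bcl6 and Xbp1, next to Pax5. These ranks are a description of 2 libraries per genotype.

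**Figure D1:**
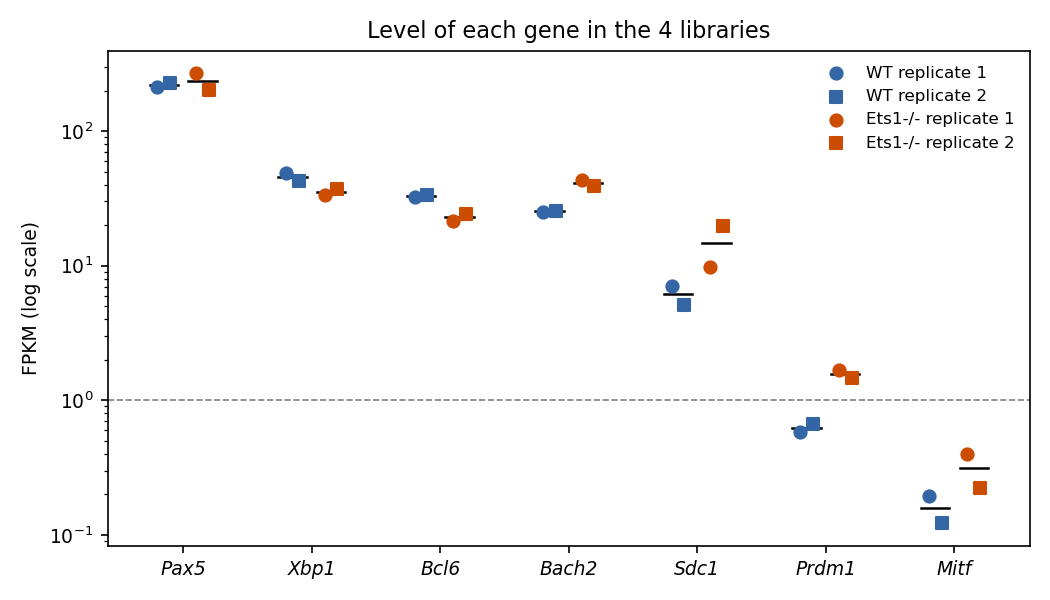
FPKM of each gene on a log axis in the 2 WT (blue) and 2 Ets1-/- (orange) libraries, with the mean of each genotype as a black bar and an FPKM of 1, the minimum for testing, as a dashed line. Bach2, Sdc1, Prdm1 and Mitf lie higher and Bcl6 and Xbp1 lower in both Ets1-/- libraries, while the libraries overlap for Pax5.

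None of the 6 genes that passed the filter on low values was called, 0 of 6 against 1.7% of all genes tested by limma (0.877% higher and 0.822% lower). At an unadjusted p under 0.05 there were 4 of the 6, Bach2, Prdm1, Bcl6 and Sdc1, against 13.3% of all genes. The genotypes did not overlap for 5 of the 6, against 41.6% of all genes. Of these, 3 were higher in Ets1-/- B cells (19.4% of all genes) and 2 were lower (22.2%). Mitf was under the filter and was not tested. Prdm1 passed the filter only through its higher level in Ets1-/- B cells, so its place among the tested genes, and these counts with it, is not independent of its difference.

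Among the 3 regulators of B cell identity, Pax5 overlapped between the genotypes, Bcl6 was lower and Bach2 was higher in both Ets1-/- libraries, and none was called. Pax5 lay at 213 and 226 FPKM in the WT libraries and at 269 and 201 FPKM in the Ets1-/- libraries. The Ets1-/- replicates thus fell on either side of both WT replicates. Its log2 fold change was 0.08 with a 95% interval from -0.43 to 0.60 (adjusted p = 0.943, limma with Benjamini-Hochberg adjustment), and it was -0.13 without Ets1-/- replicate 1. Pax5 lies on chromosome 4 of mm9 from 44544017 to 44724318, minus strand, and 3.65% of its exonic bases are shared with a transcript on the opposite strand, which a library kit that does not mark strand cannot separate.

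Bcl6, the zinc finger repressor that sustains germinal center B cells, was expressed at 32.5 and 33.5 FPKM in WT and at 21.3 and 24.4 FPKM in Ets1-/- B cells. Both Ets1-/- libraries were lower than both WT libraries, and the gap between the genotypes was wider than that between replicates. The mean went from 33.0 ± 0.710 (SD, n = 2) to 22.8 ± 2.17 FPKM (SD, n = 2), and the log2 fold change was -0.51 (standard error 0.14, 95% interval -0.87 to -0.15). After adjustment over all genes the difference did not pass (adjusted p = 0.194, limma with Benjamini-Hochberg adjustment). Bcl6 occupies chromosome 16 from 23965138 to 23988938 on the minus strand. As in any bulk sample, fewer cells that express a gene and less RNA per cell cannot be told apart.

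Bach2, a leucine zipper factor that pairs with small Maf proteins to repress Prdm1, was at 25.2 and 25.6 FPKM in the WT libraries and at 43.4 and 39.4 FPKM in the Ets1-/- libraries. It was higher in both Ets1-/- libraries, and the replicates differed by 1.02-fold in WT and by 1.10-fold in Ets1-/- B cells, against a ratio of 1.63 between the genotype means. Bach2 had the smallest p of the 6 tested genes and a log2 fold change of 0.68 (standard error 0.14, 95% interval 0.33 to 1.03). The adjusted p was 0.0975 by limma with Benjamini-Hochberg adjustment, and it ranged from 0.0617 to 0.7496 over 14 other settings of the fit. Leaving out each library in turn moved the log2 fold change only between 0.61 and 0.75. The gene spans chromosome 4 from 32325779 to 32673083, plus strand, and shares 5.15% of its exonic bases with a transcript on the opposite strand.

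The plasma cell regulator Prdm1 was low in every library, at 0.580 and 0.672 FPKM in WT and 1.68 and 1.48 FPKM in Ets1-/- B cells. Both Ets1-/- libraries were above both WT libraries, and all 4 values were far below those of Pax5, Bcl6 and Bach2. With an exonic length of 5492 bases on chromosome 10 (44156983 to 44248307, minus strand), these values correspond to 3.18 to 9.20 RPM, the level before division by transcript length, if the authors' transcript length was the same. The ratio of mean FPKM was 2.52, while on log2(FPKM + 1) the difference was 0.66 (standard error 0.16) and did not pass after adjustment (adjusted p = 0.15, limma with Benjamini-Hochberg adjustment). With a pseudocount of 0.1 in place of 1 the log2 fold change was 1.21 and the adjusted p 0.188, and over all 12 other settings that could be fitted the adjusted p by limma with Benjamini-Hochberg adjustment lay between 0.0967 and 0.685. Without Ets1-/- replicate 1, the library with the highest neutrophil sum, the log2 fold change of Prdm1 was 0.61.

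Xbp1, which drives the expansion of the endoplasmic reticulum in secreting cells, was at 49.2 and 42.4 FPKM in WT and at 33.8 and 37.2 FPKM in Ets1-/- B cells. Its values thus differed in the opposite direction from those of Prdm1 and Sdc1. The log2 fold change was -0.36 (standard error 0.15), with a 95% interval from -0.74 to 0.03 that includes 0 (adjusted p = 0.415, limma with Benjamini-Hochberg adjustment). Xbp1 lies on chromosome 11 from 5420662 to 5425896, plus strand. The active form of Xbp1 is made by splicing of its messenger RNA outside the nucleus, and 1 FPKM value per gene does not separate the spliced from the unspliced form.

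Sdc1 was at 7.11 and 5.13 FPKM in WT and at 9.72 and 19.8 FPKM in Ets1-/- B cells. The genotypes did not overlap, but the Ets1-/- replicates differed from each other by 2.04-fold, nearly as much as the genotype means, whose ratio was 2.41. On log2(FPKM + 1), Sdc1 had the largest log2 fold change of the 6 tested genes, 1.08 with a standard error of 0.35. Its 95% interval ran from 0.19 to 1.98 (adjusted p = 0.260, limma with Benjamini-Hochberg adjustment). Leaving out Ets1-/- replicate 2 brought it to 0.60, and leaving out Ets1-/- replicate 1 brought it to 1.56. The ranking depends on the pseudocount, since with 0.1 in place of 1 Prdm1 was at 1.21 and Sdc1 at 1.19. Sdc1 lies on chromosome 12 from 8778129 to 8800521, plus strand.

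Mitf was at 0.195 and 0.122 FPKM in WT and at 0.402 and 0.223 FPKM in Ets1-/- B cells. Both Ets1-/- values were higher, but the gap between the lower of them and the upper WT value was smaller than the gap between the replicates of either genotype. With 6233 exonic bases on chromosome 6 (97757052 to 97971352, plus strand), this amounts to between 0.762 and 2.51 RPM by the same reckoning. Mitf is abundant in mast cells and basophils, whose 6 markers summed to 1.05 and 0.492 FPKM in WT and 0.510 and 0.536 FPKM in Ets1-/- B cells. Among them Fcer1a was listed at 0 in all 4 libraries, while Kit (0.119 to 0.284 FPKM) and Ms4a2 (0.0964 to 0.253 FPKM) were at levels like those of Mitf. Of the 6 markers, all under 1 FPKM, 0 were higher and 2 lower in Ets1-/- B cells without overlap (19.4% and 22.2% of all genes tested). Ms4a2 was among the lower, whereas Mitf was higher. The part of mast cells and basophils in the values of Mitf was not tested. Of the relatives of Mitf, Tfeb and Tfe3 were well expressed, with log2 fold changes of 0.24 and -0.28, and Tfec was under the filter.

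**Figure D2:**
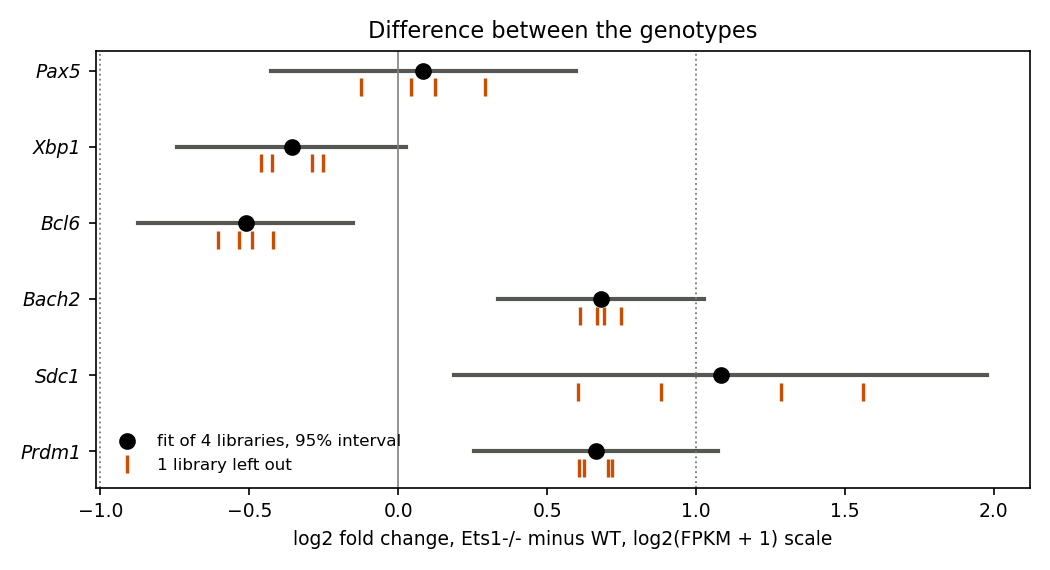
Log2 fold change (Ets1-/- minus WT, log2(FPKM + 1) scale) of the 6 tested genes with the 95% interval from limma, and, as orange ticks, the value after leaving out each library in turn. The intervals of Bcl6, Bach2, Prdm1 and Sdc1 leave out 0 before adjustment for 10949 genes, and the ticks of Pax5 lie on both sides of 0.

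A ratio between genes of one library does not depend on how the libraries were scaled, so Prdm1 was also set against the 3 factors that oppose it. Per 100 FPKM of Pax5 there were 0.272 and 0.297 FPKM of Prdm1 in WT and 0.622 and 0.733 in Ets1-/- B cells. Per 100 FPKM of Bcl6 the values were 1.79 and 2.01 in WT and 7.86 and 6.05 in Ets1-/- B cells. The balance was thus higher toward Prdm1 in both Ets1-/- libraries for both genes, by 1.25 on the log2 scale against Pax5 and by 1.86 against Bcl6. Per 100 FPKM of Bach2, Prdm1 was at 2.30 and 2.62 in WT and at 3.86 and 3.75 in Ets1-/- B cells, a log2 difference of 0.63, the smallest of the 3. In none of the 3 ratios did the genotypes overlap, but the ratios reuse the Prdm1 values given above and add no separate evidence. For Bcl6 this outcome was fixed beforehand, since Prdm1 was higher and Bcl6 lower in both Ets1-/- libraries. An exact permutation test of 2 against 2 libraries cannot give a two-sided p below 0.333, so no test was made.

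**Figure D3:**
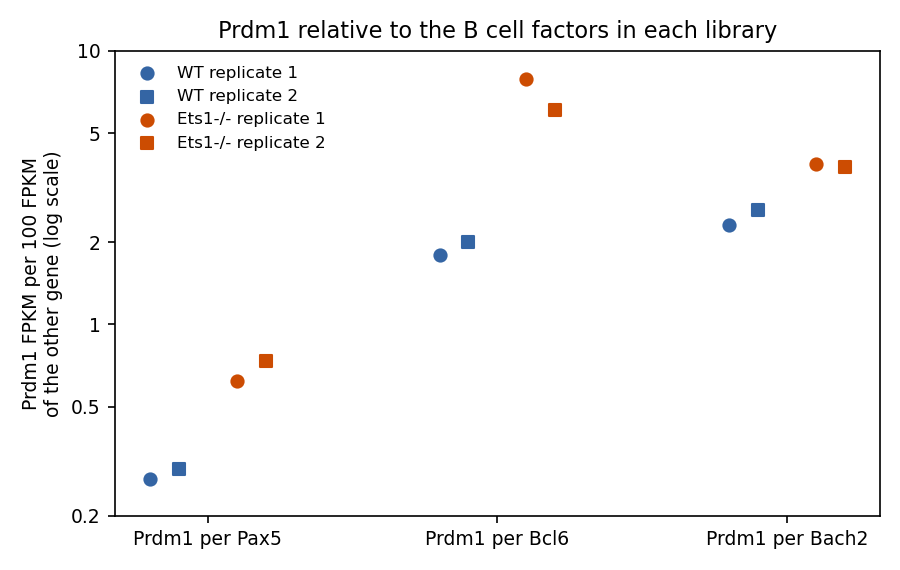
FPKM of Prdm1 per 100 FPKM of Pax5, Bcl6 and Bach2 in each library, on a log axis, with WT in blue and Ets1-/- in orange. The Ets1-/- libraries lie above the WT libraries in all 3 ratios, with the widest gap for Bcl6.

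Likeness of pattern between genes was measured as the Euclidean distance between the log2(FPKM + 1) values of the 4 libraries after subtracting each gene's mean, where 0 means the same pattern. The distance between Bach2 and Prdm1 was 0.0477, and 3 of the 10949 genes were closer to Bach2 than Prdm1 was, namely Lrrk2, Il3ra and Klhdc1. This closeness depends on the pseudocount of 1, which shrinks the low values of Prdm1 more than those of Bach2, since with a pseudocount of 0.1 the log2 fold changes were 1.21 for Prdm1 and 0.70 for Bach2, and the ratio of their FPKM differed between the genotypes by 0.63 on the log2 scale. The nearest genes to Prdm1 were Pvrl1, Klhdc1 and Dock6. Nearest to Bcl6 were Phldb3, Neu1 and Zfp3, and nearest to Xbp1 were Fes, Zfp748 and Tmbim1, all at distances of up to 0.0399. For Sdc1 the nearest were Il4i1 (0.0814), Socs1 (0.197) and Cd247 (0.249), which shared its high value in Ets1-/- replicate 2. With 4 libraries such likeness is a description only.

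The other factors of B cell identity held no called gene. Of 12 other B cell identity factors, including Ebf1, Tcf3 and Ikzf1, 0 were called, and their median log2 fold change was 0.08, beside -0.02 for all genes tested. An unadjusted p under 0.05 in limma was reached by 2 of the 12 (13.3% of all genes), Foxo1 and Bcl11a (-0.42), both lower. Foxo1, a factor required throughout B cell development, had the widest difference, from a mean of 51.5 FPKM in WT to 35.6 FPKM in Ets1-/- B cells (log2 fold change -0.52), followed by Irf8 at 0.42. Among 12 genes known to be activated by Pax5, 0 were called and the median was -0.23. Cr2, the complement receptor CD21 that the sort itself selected to be low, was lowest at -1.28, and at -1.82 and called without Ets1-/- replicate 1, and Cd72 highest at 0.58. Of 7 genes that Pax5 represses, 0 were called, with a median of -0.16, and Emb (-0.54) and Notch1 (-0.51) were the most different. Before adjustment, 2 of the 12 activated and 2 of the 7 repressed genes had a p under 0.05, against 13.3% of all genes.

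Around Bcl6, the 10 tested genes of a list of 12 that it represses held 2 called genes, 1 in each direction, against 1.7% of all genes called. Ccnd2, which encodes cyclin D2, rose from 11.9 and 11.1 FPKM in WT to 25.8 and 24.0 FPKM in Ets1-/- B cells, a log2 fold change of 1.05 (adjusted p = 0.0383, limma with Benjamini-Hochberg adjustment). Ccl3, a chemokine made by activated B cells, fell from 7.37 and 9.05 FPKM to 1.63 and 1.28 FPKM, a log2 fold change of -1.90 (adjusted p = 0.0144, limma with Benjamini-Hochberg adjustment). Id2 was at 10.5 and 11.1 FPKM in WT and 28.2 and 20.0 FPKM in Ets1-/- B cells, a log2 fold change of 1.07 (adjusted p = 0.0809, limma with Benjamini-Hochberg adjustment). The median of the 10 genes was -0.06. The call of Ccnd2 was lost whichever library was left out (log2 fold change 1.00 to 1.10), and that of Ccl3 when either Ets1-/- library was left out (-2.01 and -1.80). With no filter on low values neither passed (adjusted p = 0.0685 for Ccnd2 and 0.0565 for Ccl3, limma with Benjamini-Hochberg adjustment). Of 5 corepressors that act with Bcl6, 0 were called, and their median log2 fold change was -0.05.

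Bach2 binds DNA together with a small Maf protein, and of 5 partners and relatives 0 were called. Mafk was at 27.6 and 35.0 FPKM in WT and at 103 and 69.7 FPKM in Ets1-/- B cells, above both WT libraries by the widest margin of the list, by 1.42 on the log2 scale (adjusted p = 0.0697, limma with Benjamini-Hochberg adjustment). Maff differed by 0.85 with overlap between the genotypes. The median of the 5 genes was 0.21, with 3 at an unadjusted p under 0.05, namely Mafk, Bach1 (-0.37) and Nfe2l2 (-0.55). Of 6 genes known to be repressed by Bach proteins 4 were tested, 0 were called and the median was 0.27. Among them the iron storage gene Ftl1, whose processed copies in the genome make its level uncertain, differed by 0.50 and the heme oxygenase gene Hmox1 by 0.35.

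Genes that Blimp-1 represses in plasma cells lay on both sides of 0. Of 8 such genes 0 were called, 1 had an unadjusted p under 0.05 and the median log2 fold change was -0.06. Id3, an inhibitor of E proteins, was lower, at 68.6 and 75.9 FPKM in WT and 31.7 and 46.4 FPKM in Ets1-/- B cells (log2 fold change -0.90, adjusted p = 0.152, limma with Benjamini-Hochberg adjustment). Myc was higher by 0.77, with WT values of 72.5 and 120 FPKM and Ets1-/- values of 197 and 130 FPKM. These 2 genes lay on opposite sides of 0, and neither passed.

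Of 14 other genes typical of plasma cells 13 were tested, 0 were called, 4 had an unadjusted p under 0.05 (13.3% of all genes) and the median was 0.15. Mzb1, a chaperone of antibody assembly, was at 175 and 215 FPKM in WT and 272 and 290.5 FPKM in Ets1-/- B cells, higher in both (log2 fold change 0.53, adjusted p = 0.278, limma with Benjamini-Hochberg adjustment). Irf4, which acts with Blimp-1 and Xbp1 in plasma cells, was at 47.3 and 73.4 FPKM in WT and 45.2 and 23.0 FPKM in Ets1-/- B cells, a log2 fold change of -0.85 (adjusted p = 0.444, limma with Benjamini-Hochberg adjustment). Both Ets1-/- values were below both WT values, by a small margin in replicate 1. Cd93, a surface receptor that supports plasma cell survival, was at 2.96 and 2.28 FPKM in WT and 0.625 and 0.758 FPKM in Ets1-/- B cells (log2 fold change -1.09, adjusted p = 0.0615, limma with Benjamini-Hochberg adjustment). Jchain (listed as Igj), the joining chain of secreted antibody, overlapped between the genotypes at 63.6 and 67.2 FPKM in WT and 47.8 and 70.1 FPKM in Ets1-/- B cells. Tnfrsf17, the receptor BCMA of plasma cells, was under 1 FPKM in every library and lower in both Ets1-/- libraries. Like Mzb1, Ell2 (log2 fold change 0.46), Slamf7 (0.38) and Derl3 (0.23) were higher in both Ets1-/- libraries. Fkbp11 (-0.49) and Creb3l2 (-0.41) were lower in both. Summed over these 14 genes with Prdm1, Xbp1 and Sdc1, the FPKM was 669 and 749 in WT and 786 and 827 in Ets1-/- B cells, with 6 of the 17 genes higher and 6 lower without overlap (19.4% and 22.2% of all genes tested) and none at 0 throughout. Such a sum is weighted toward abundant genes, and Mzb1 alone had means of 195 FPKM in WT and 281 FPKM in Ets1-/- B cells. The higher sum is therefore no measure of the plasma cell genes as a set. The part of plasma cells in the values of Sdc1 and Prdm1 was not tested.

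Downstream of Xbp1, 1 of 13 genes that it activates was called, against 1.7% of all genes tested. Sec24d, a coat protein of vesicles leaving the endoplasmic reticulum, rose from 2.13 and 1.99 FPKM in WT to 6.40 and 7.33 FPKM in Ets1-/- B cells, a log2 fold change of 1.36 (adjusted p = 0.0259, limma with Benjamini-Hochberg adjustment). That call was lost whichever library was left out, while the log2 fold change stayed between 1.27 and 1.44. It was also lost with no filter on low values and with a minimum mean of 5 FPKM (adjusted p = 0.0802 and 0.0869, limma with Benjamini-Hochberg adjustment). Dnajb9, a chaperone, was next at 0.95, with values of 18.5 and 59.5 FPKM in WT and 104 and 40.5 FPKM in Ets1-/- B cells that overlapped. The median of the list was 0.09. Without overlap 2 of the 13 were higher in Ets1-/- B cells, Sec24d and Syvn1 (0.23), and 2 were lower, Dnajc3 and Pdia6. The shares among all genes tested were 19.4% and 22.2%. Of 6 sensors and effectors of stress in the endoplasmic reticulum 0 were called, with a median of 0.20. Rtcb (listed as D10Wsu52e), the ligase that joins the cut Xbp1 messenger RNA, was at 109 and 118 FPKM in WT and at 161 and 183 FPKM in Ets1-/- B cells (log2 fold change 0.60, adjusted p = 0.174, limma with Benjamini-Hochberg adjustment), and Ddit3 differed by 0.41 with overlap. Ern1, which cuts that messenger RNA, overlapped between the genotypes, at 1.88 to 2.60 FPKM over the 4 libraries.

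Among the syndecans, Sdc4 was the most abundant in these cells, at 56.8 and 67.2 FPKM in WT and 54.0 and 49.7 FPKM in Ets1-/- B cells (log2 fold change -0.25), so its level per length was above that of Sdc1 in every library. Sdc3 overlapped between the genotypes (0.02), and Sdc2 was under the filter. Of 8 enzymes that build the heparan sulfate chains carried by syndecans 0 were called, with a median of -0.04. Ext1, which extends the chain, was lowest at -0.56, followed by Glce at -0.15.

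**Figure D4:**
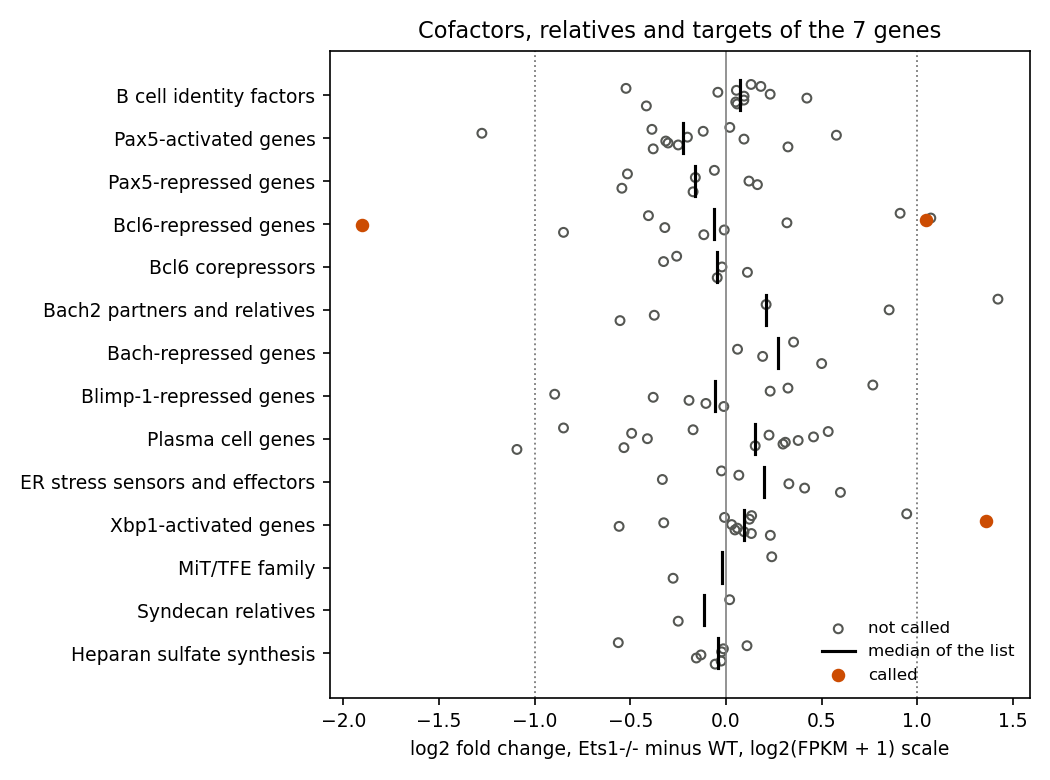
Log2 fold change (Ets1-/- minus WT, log2(FPKM + 1) scale) of every tested gene in each list of cofactors, relatives and targets, with called genes as filled orange points and the median of each list as a black bar. The 3 filled points are Ccl3 at -1.90, Ccnd2 at 1.05 and Sec24d at 1.36, and the medians lie between -0.23 and 0.27.

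Markers checked the labelled cell type. The 8 follicular B cell markers found were expressed at a summed FPKM of 4211 to 5150, 0 were called, and their median log2 fold change was -0.06, while Ighd matched no symbol. Of the 10 neutrophil genes 3 were called, Camp, Ngp and Ltf, against 5 without Ets1-/- replicate 1 and 8 without Ets1-/- replicate 2. The 9 macrophage genes summed to 61.1 and 27.4 FPKM in WT and 147 and 92.6 FPKM in Ets1-/- B cells. Of these 9, 2 were higher without overlap, Adgre1 (listed as Emr1) and Lyz2, and 0 were lower (19.4% and 22.2% of all genes tested). Adgre1 was called, going from 2.35 and 2.63 FPKM in WT to 23.5 and 37.2 FPKM in Ets1-/- B cells. The 4 erythroid genes were higher in both Ets1-/- libraries, with sums of 6.21 and 3.95 FPKM in WT and 63.5 and 27.5 FPKM in Ets1-/- B cells, though near-identical hemoglobin copies make them uncertain. Of 8 T cell genes, which summed to 90.2 to 126 FPKM with overlap, 1 was called (1.7% of all genes tested). This was Thy1, which fell from 17.4 and 16.2 FPKM to 3.38 and 3.39 FPKM. By log2 fold change 4 of the 8 were higher. Without overlap 1 was higher, Cd3g (0.54), and 3 were lower (19.4% and 22.2% of all genes tested). Of 4 NK cell genes 3 were lower without overlap (22.2% of all genes tested) and 0 were called, while Nkg7 overlapped at a log2 fold change of 0.20. Germinal center, marginal zone and B-1 genes (7, 5 and 4) held 0 called genes, against 1.7% of all genes tested. Their summed FPKM was 17.5 to 35.1, 73.3 to 122 and 20.7 to 24.4. Within these sums the germinal center gene Rgs13 was at 3.09 and 5.84 FPKM in WT and 0.305 and 0.746 FPKM in Ets1-/- B cells (adjusted p = 0.0681, limma with Benjamini-Hochberg adjustment). Rgs13 was the only 1 of the 7 germinal center genes without overlap, against 41.6% of all genes tested. The median log2 fold change of the 7 was -0.05. The B-1 gene Zbtb32 was at 1.49 and 2.15 FPKM in WT and 4.44 and 6.48 FPKM in Ets1-/- B cells (adjusted p = 0.0893, limma with Benjamini-Hochberg adjustment). Of the 4 B-1 genes 3 had an unadjusted p under 0.05 in limma (13.3% of all genes). Among them Zbtb32 and Bhlhe41 (0.66) were higher and Spn (-0.71) was lower. Without WT replicate 1, 1 germinal center gene was called lower. Without Ets1-/- replicate 1 the log2 fold changes of Bach2 and Prdm1 were both 0.61, and the replicate that remained still had a neutrophil sum of 705 FPKM. The part of these other cells in the values was not tested.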

How the data were processed

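RNA of follicular B cells sorted from spleen was sequenced in 4 libraries, 2 per genotype, and the methods call them biological replicates. The authors aligned the reads to mm9 with TopHat2 2.0.13 (version per the labels), estimated expression with Cuffdiff and deposited 1 FPKM value per gene symbol and library. The gene annotation and the scaling between libraries are not given in the sources used here, and read counts were not used here. Each table had 23309 entries; 4 that shared a symbol were dropped, and 25 had dates in place of symbols.

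Values were compared as log2(FPKM + 1) with limma 3.58.1 in R 4.3.3 (lmFit, eBayes with a trend, residual degrees of freedom 2, prior degrees of freedom 3.1) over 10949 genes (mean of 1 FPKM or more in one genotype or both), with Benjamini-Hochberg adjustment. The fit was tested on simulated data. Relative depth came from the ratios of FPKM values under 0.05 between libraries, and precision is limited by 2 replicates. The members and lists were chosen with earlier results of these data known. The genes named are the 7 members, the called genes of each list and, where fewer than 2 were called, the 2 with the largest change, the 3 nearest in pattern, defining markers that moved, Irf4 and Ets1. Id2, Bach1, Nfe2l2, Mzb1, Jchain, Tnfrsf17, Dnajc3, Pdia6, Ern1, Tfec, Sdc2, Rgs13, Zbtb32, Kit and Ms4a2 fall outside this rule and were chosen after their values were seen. The same holds for Bcl11a, Bhlhe41, Spn, Lyz2, Nkg7, Syvn1, Cd3g, Ell2, Slamf7, Derl3, Fkbp11 and Creb3l2. The named genes of the list of Bcl6 corepressors are not reported here. Positions and exonic lengths came from GENCODE M1 (mm9), and promoter windows from RefSeq. Alternatives covered the pseudocount, the filter, scaling, variance estimation, the replicate block and each library left out. Python 3.11.15 was used for the rest.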

Additional observations from a re-analysis of the deposited data

How the results depend on the processing

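Precision rests on 2 libraries per genotype, and the median absolute log2 difference between replicates was 0.259 in Ets1-/- and 0.126 in WT. The number of genes called, 186, was 75 with no filter on low values, 106 with a mean FPKM of at least 5 and 305 with robust empirical Bayes; the cause was not tested. With robust empirical Bayes Cd93, Id2 and Mafk were also called (adjusted p = 0.0210, 0.0299 and 0.0206, limma with Benjamini-Hochberg adjustment). Leaving out each library gave 130 to 144 genes, 67.7% of them higher without Ets1-/- replicate 2 against 51.6% in all libraries. In all 14 other settings listed for this fit 0 of the 7 genes were called, and Bcl6, Bach2, Xbp1 and Sdc1 kept their direction in all 14 and Prdm1 in the 12 that could be fitted, since a stricter filter removed it. Pax5 turned to -0.040 under quantile normalization and ranged from -0.13 to 0.29 with a library left out. Mitf, fitted only with no filter, had a log2 fold change of 0.18 (adjusted p = 0.522, limma with Benjamini-Hochberg adjustment). The 3 ratios of Prdm1 kept their direction with each library left out, as must any value whose genotypes do not overlap. Called genes with a library left out ranged from 0 to 1 for the genes repressed by Bcl6 and for those activated by Pax5 (Cr2, without Ets1-/- replicate 1), and were 0 for those activated by Xbp1.

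A fit that used the replicate number as a block called 266 genes, among them 1 repressed by Bcl6 (Ccl3, but not Ccnd2, adjusted p = 0.0529 by limma with Benjamini-Hochberg adjustment), 1 partner of Bach2 (Mafk), 1 germinal center gene, which was lower, and 1 B-1 gene, which was higher. Same-numbered replicates deviated with a correlation of -0.207 across genes, so the numbers were not taken to pair the libraries. With the crossed pairing as a block, chosen after seeing the data, 409 genes were called, 1 of them among the 7 (Sdc1, log2 fold change 1.082).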
